A study of Drosophila melanogaster with 5 samples.

Results

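The accessible regions found in progenitor cells of the adult Drosophila midgut, and in neither of the differentiated cell types, were examined in ATAC-seq peak lists. The midgut epithelium is renewed by intestinal stem cells, which self-renew and give rise to enteroblasts and enteroendocrine progenitors. These mature into absorptive enterocytes (ECs) and hormone-secreting enteroendocrine cells (EEs). Stem cells and enteroblasts together express the Snail-family repressor Escargot (esg) and are called esg+ progenitor cells. Notch, JAK-STAT, EGFR, Wnt and BMP signals are known to control their division and differentiation. ATAC-seq cuts open chromatin with a transposase, and peaks are called where fragments pile up above background.

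The 5 peak lists came from 1 library each, so no comparison between populations could be tested. The populations were esg+ progenitor cells (esg-Gal4ts, UAS-GFP), EEs (prosV1-Gal4ts, UAS-GFP), ECs (Myo1A-Gal4ts, UAS-GFP), Ttk-depleted ECs (Myo1A-Gal4ts, UAS-GFP, UAS-ttk-RNAi and pros-mCherry) and Pros-depleted EEs, which added UAS-pros-RNAi to prosV1-Gal4ts and UAS-GFP. All carried a temperature-sensitive Gal4 driver and GFP and came from pooled guts of female flies, 100 to 150 per sample. The flies were aged 5 to 7 days when shifted to 29 °C and were kept there for 7 days before sorting. About 40000 cells were sorted for GFP, and the Ttk-depleted ECs for weak GFP together with Pros-mCherry, so that their list comes from the fraction of cells with the reporter of Pros, a homeodomain factor of EEs. Each driver also limits its population, since esg-Gal4 marks stem cells and enteroblasts alike and Myo1A-Gal4 can mark late enteroblasts. Peak names of the progenitor library carry the mark 5w, and those of EEs, ECs and Pros-depleted EEs a replicate number, neither of which the sources used here explain.

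On chromosomes 2, 3, 4 and X, overlapping or touching intervals of the 5 lists were merged into 15196 regions. Of these, 1235 held a progenitor peak and no peak of EEs or ECs, 8.13% of all merged regions. They are called progenitor-only regions here, a name for the pattern of called peaks and not for the absence of signal elsewhere. Every value from the progenitor, EE and EC lists was used by this choice and is given as description. The depleted lists, the annotation, the sequence and the RNA lists of the study entered only afterwards, apart from the merging itself. Of the other regions, 5203 had a peak in all 3 normal populations, 1503 in progenitors and ECs, 1135 in progenitors and EEs, 2210 in EEs alone and 2769 in ECs alone. Shares carry 95% Wilson intervals, which cover counting error only.

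The sequence around the progenitor summit is shown for 6 of these regions, chosen after their values were seen because they carry the letters or the fate that the results below turn on. All are from the Release 6 genome (dm6, the BDGP6 build of the files), plus strand, and hold up to 300 bases centred on the summit, shortened where annotated untranslated exon sequence began. Capitals mark matches on either strand to the motifs described with the motif shares. The promoters of Top2 (topoisomerase 2, chr2L:19453491-19453704) and Fign (a microtubule-severing ATPase, chr2L:3319873-3320089) hold the DRE, the palindrome TATCGATA of many housekeeping promoters, within 14 bp of the summit. The intronic region of spir (an actin nucleator, chr2L:20337750-20338049) and the promoter region of OtopLb (a proton channel of the otopetrin family, chr2L:3280666-3280965) hold GATA letters and also had peaks in Pros-depleted EEs. The intronic region of Tie (a receptor tyrosine kinase, chr3L:4521950-4522249) holds Forkhead letters and the heptamer TATGTAA. The promoter of Sox21a (an HMG-box factor of enteroblast differentiation, chr3L:14108145-14108444) holds a run of GAGA letters and the Ttk letters AGGACC, and it had a peak in Ttk-depleted ECs.
Top2: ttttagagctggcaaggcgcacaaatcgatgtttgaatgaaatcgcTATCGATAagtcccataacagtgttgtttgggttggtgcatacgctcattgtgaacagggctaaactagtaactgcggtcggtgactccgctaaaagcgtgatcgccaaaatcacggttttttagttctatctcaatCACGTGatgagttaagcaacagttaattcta
Fign: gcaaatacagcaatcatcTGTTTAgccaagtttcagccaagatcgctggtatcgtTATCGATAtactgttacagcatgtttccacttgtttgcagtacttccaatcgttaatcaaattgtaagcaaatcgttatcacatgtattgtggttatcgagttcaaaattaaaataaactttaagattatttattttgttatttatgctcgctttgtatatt
spir: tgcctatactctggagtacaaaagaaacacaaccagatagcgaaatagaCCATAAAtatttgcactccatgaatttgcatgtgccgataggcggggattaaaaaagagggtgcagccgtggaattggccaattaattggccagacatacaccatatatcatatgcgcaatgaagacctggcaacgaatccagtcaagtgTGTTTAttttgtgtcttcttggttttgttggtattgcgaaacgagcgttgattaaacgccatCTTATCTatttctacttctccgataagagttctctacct
OtopLb: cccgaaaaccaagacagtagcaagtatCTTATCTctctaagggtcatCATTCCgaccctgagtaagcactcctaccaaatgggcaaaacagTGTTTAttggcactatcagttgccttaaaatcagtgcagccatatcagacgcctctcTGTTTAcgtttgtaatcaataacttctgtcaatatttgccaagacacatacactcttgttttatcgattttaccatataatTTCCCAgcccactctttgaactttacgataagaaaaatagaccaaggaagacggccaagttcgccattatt
Tie: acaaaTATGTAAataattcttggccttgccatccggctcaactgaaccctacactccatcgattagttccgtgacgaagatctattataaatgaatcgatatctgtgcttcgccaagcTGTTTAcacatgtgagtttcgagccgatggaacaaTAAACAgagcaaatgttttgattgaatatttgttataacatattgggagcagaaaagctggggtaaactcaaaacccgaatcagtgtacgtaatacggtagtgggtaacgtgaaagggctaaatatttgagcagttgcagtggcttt
Sox21a: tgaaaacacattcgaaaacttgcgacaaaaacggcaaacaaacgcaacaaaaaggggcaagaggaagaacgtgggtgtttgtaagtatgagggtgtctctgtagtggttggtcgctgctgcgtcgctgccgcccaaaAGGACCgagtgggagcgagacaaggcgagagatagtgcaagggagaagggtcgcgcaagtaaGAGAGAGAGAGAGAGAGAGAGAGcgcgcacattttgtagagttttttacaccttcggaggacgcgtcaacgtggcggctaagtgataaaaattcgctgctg

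Progenitor-only regions were mostly narrow and low in the progenitor list. Their median progenitor fold enrichment over the background set by the peak caller was 2.90 (quartiles 2.38 and 3.72, n = 1235), against 3.32 for regions shared with EEs, 4.69 for regions shared with ECs and 6.56 for regions of all 3. By quartile of fold enrichment over the 9076 regions with a progenitor peak, 821 lay in the lowest quartile, up to a fold of 3.35, 312 in the next, 88 in the third and 14 in the highest. The median peak was 318 bp wide, against 760 bp for regions of all 3. The weakest member, nearest to CG5004, had a progenitor −log10 q of 1.38, while a region near ND-B14.5AL lay just outside the rule through an EC peak with a −log10 q of 1.37. A single EE or EC peak with a −log10 q under 3 kept 177 further regions outside, and one under 5 kept 581 outside. The nearest EE or EC peak lay at a median of 2121 bp (range 10 to 89926 bp), and within 1 kb for 316 regions (25.6%).

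**Figure D1:**
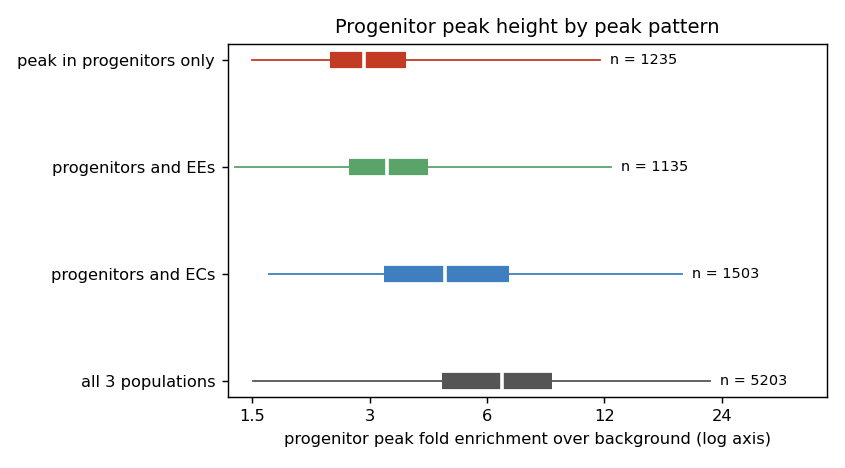
Progenitor peak fold enrichment over background (log axis) for regions with a progenitor peak, by the populations that share the peak. Thick bars are the quartile range, white marks the medians and thin lines the full range over regions. The progenitor-only regions (n = 1235) have the lowest median, 2.90.

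The choice of these regions depended on the peak threshold. When progenitor peaks needed a −log10 q of 10 or more and the other lists stayed as deposited, 571 of the 1235 remained. With that threshold in all 5 lists, 1848 regions met the rule, and 572 of them overlapped the 1235, since weak EE and EC peaks no longer kept regions out. With the 3269 strongest peaks of each list, the length of the shortest, 256 regions met it and 12 overlapped the 1235. The Pros-peak and neighbour shares below are also given among the 571, while gene-list and motif shares are for all 1235.

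Few progenitor-only regions had a peak in Pros-depleted EEs. The study calls these cells progenitor-like, although its stainings found esg in only part of them. Such a peak was found at 227 of 1235 regions (18.4%, interval 16.3 to 20.6), while 53.9% of all merged regions had one. The latter include 575 regions with a Pros-depleted peak and none in the 3 normal populations. The share was 38.1% for regions of progenitors and ECs, 72.3% for regions of progenitors and EEs and 95.5% for regions of all 3. It was 36.8% for EE-only regions and 3.29% for EC-only regions. Pros-depleted EEs derive from EEs, and the rule left out every region with an EE peak. A share below those of regions with an EE peak thus follows in part from the choice. Among kinds without an EE peak, progenitor-only regions lay between EC-only regions and regions of progenitors and ECs. Within the lowest quartile of progenitor fold, where most members lie, the shares were 15.2% for progenitor-only regions (125 of 821), 26.3% for regions of progenitors and ECs and 63.2% for regions of progenitors and EEs. In the second quartile they were 25.3%, 34.4% and 79.9%, and in the third 20.5%, 43.7% and 86.6%. In each of these 3 quartiles the progenitor-only share was the lowest and its interval lay apart from that of the EE-sharing regions. In the second quartile, the intervals of progenitor-only and EC-sharing regions met. The highest quartile held only 14 progenitor-only regions, 5 of them with a peak. Among the 571 with stronger progenitor peaks the share was 23.1%.

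Position went with the share too. Of 561 progenitor-only regions at a promoter, 123 (21.9%, interval 18.7 to 25.5) had a peak in Pros-depleted EEs, against 104 of 674 distal regions (15.4%, interval 12.9 to 18.4). In the lowest fold quartile the shares were 16.6% and 14.0%, with overlapping intervals, in the second 31.7% and 20.2%, again overlapping, and in the third 37.9% of 29 and 11.9% of 59. The 227 peaks were weak where found, with a median percentile of 21.1 within the Pros-depleted list. How far low peak height alone sets these shares was not tested, since read counts on regions were not used here.

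In Ttk-depleted ECs a peak was found at 40 of 1235 progenitor-only regions (3.24%, interval 2.39 to 4.38), while 18.7% of all merged regions had one. This list was the shortest, with 3269 peaks of a median width of 129 bp against 8466 to 10048 peaks of 476 to 591 bp in the other 4. The share was 2.99% for EE-only and 1.08% for EC-only regions. For regions of progenitors and EEs, which also lack an EC peak, it was 9.16% (interval 7.62 to 10.98). It was 17.5% for regions of progenitors and ECs and 38.6% for regions of all 3. These cells derive from ECs, and the rule left out every region with an EC peak. A share below those of the latter 2 kinds thus follows in part from the choice. By fold quartile, shares follow in the order progenitor-only, progenitors and ECs, progenitors and EEs, and all 3. In the lowest quartile they were 2.31%, 7.32%, 6.78% and 11.02%. In the second they were 3.85%, 13.88%, 10.46% and 20.14%, and in the third 4.545%, 20.42%, 12.6% and 35.11%. In the highest, 5 of 14 progenitor-only regions had a Ttk peak (interval 16.34 to 61.24). The other shares there, 32.3%, 26.9% and 59.15%, lay inside this interval. Both depleted lists had a peak at 10 progenitor-only regions, and 978 (79.2%) had one in neither. The merging joined intervals of the depleted lists as well, so a depleted peak that bridged a progenitor peak and an EE or EC peak removed that region. Counted peak by peak at progenitor summits, without merging, the shares were 18.5% and 2.55%.

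**Figure D2:**
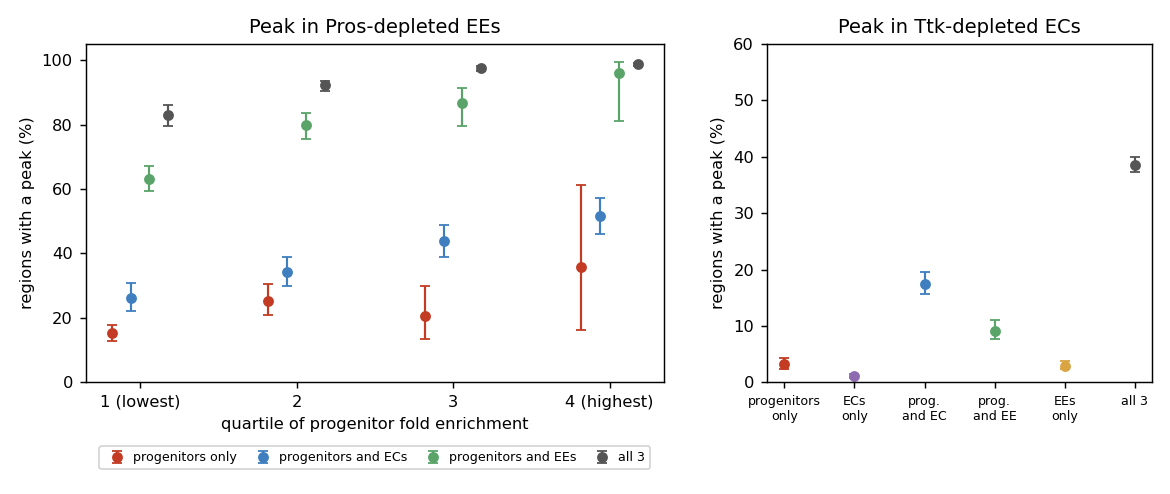
Share of regions with a Pros-depleted peak by quartile of progenitor fold enrichment (left) and with a Ttk-depleted peak (right), for regions grouped by their peaks in the 3 normal populations. Points are shares and bars 95% Wilson intervals. In the lowest quartile the progenitor-only share is 15.2% and that of regions shared with EEs 63.2%. Progenitor-only regions have no EE or EC peak by the rule.

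The highest peaks of progenitor-only regions lay near genes of varied function. The first 10 by progenitor fold had folds of 8.20 to 11.7 and percentiles of 79.8 to 94.9 in the progenitor list. The highest lay in an intron and nearest to HnRNP-K, which encodes an RNA-binding protein, with a fold of 11.7 and no peak in either depleted list. The region nearest to VhaAC45, an accessory subunit of the proton pump, had a fold of 11.3 and lay at percentile 44.0 in Pros-depleted EEs. The region nearest to Obp57a, an odorant-binding protein gene, had peaks in both depleted lists, at percentiles 71.5 (Pros) and 19.0 (Ttk). The region nearest to CG16894, 30766 bp from its start, had a fold of 9.83. The region at Cyp4p2, a cytochrome P450 gene, had a fold of 9.63, and neither had a peak in the depleted lists.

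The promoter region of CG13096, 74 bp upstream of its start, had a fold of 9.30 and peaks in both depleted lists, at percentiles 37.4 and 22.5. An intronic region of Prosap, the fly homologue of the Shank scaffold proteins, had a fold of 9.23 and a Ttk peak at percentile 41.9. A region far upstream of Ten-m, a teneurin gene, had a fold of 8.51 and no depleted peak. The region nearest to CG31680 had a fold of 8.48 and percentiles of 81.2 and 77.4 in the Pros and Ttk lists. It overlapped an annotated transposable element, and an EE or EC peak lay 149 bp away. The region nearest to CG42296 had a fold of 8.20 and none. Thus 4 of these 10 had a Pros-depleted peak and 4 a Ttk-depleted peak, beside 53.9% and 18.7% of all merged regions. All 10 lie in the highest fold quartile. Pros shares there were 51.7% for regions of progenitors and ECs, 96.15% for those of progenitors and EEs and 98.8% for those of all 3. Ttk shares there were 32.3%, 26.9% and 59.15%.

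The members with the highest peaks in Pros-depleted EEs were low to middling in progenitors. A region with its summit in a 3′ UTR, nearest to scrt, which encodes a Snail-family factor known from neurons, lay at percentile 90.9 in Pros-depleted EEs and 15.1 in progenitors. A promoter region of CG43894 lay at 86.9 and 37.0, and an intronic region of gukh, a synaptic scaffold gene, at 85.7 and 47.9. A region at an annotated TSS, nearest to gpp, which encodes a histone H3 methyltransferase of the Dot1 family, lay at 84.1 and 45.1. The OtopLb promoter region shown above lay at 83.5 and 61.4. None of these 5 had a Ttk peak.

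The highest Ttk peaks lay at the promoters of Bicra, a chromatin remodelling subunit gene, and of Sox21a. The Bicra promoter region was at percentile 99.0 in Ttk-depleted ECs and 9.44 in progenitors. The Sox21a promoter region (chr3L:14108118-14108415), 177 bp upstream of the start, was at 95.3 in Ttk-depleted ECs and 18.5 in progenitors, with a progenitor fold of 2.92. A region near CG15357 was at 94.2 and 45.7. Of the 2 members nearest to CG15186, the upstream one was at 93.2 and 71.3 and the one overlapping a promoter at 61.3 and 78.8. The promoter region of CG14234 was at 90.1 and 5.38. None of these had a Pros-depleted peak.

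**Figure D3:**
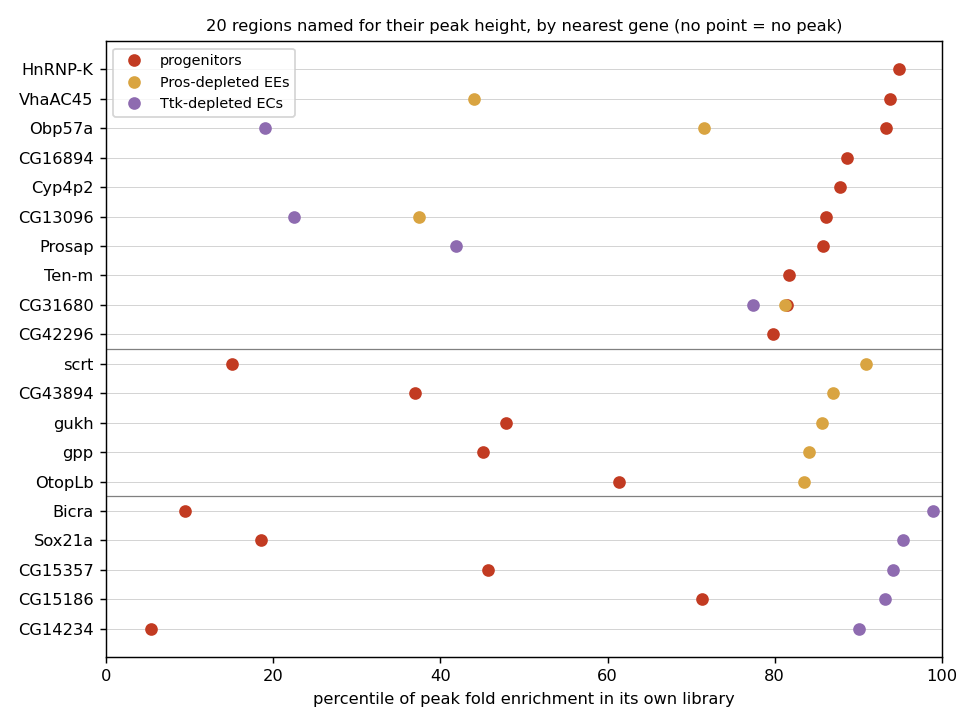
Percentile of peak fold enrichment within each library for 20 progenitor-only regions, labelled by nearest protein-coding gene: the 10 highest in progenitors, the 5 highest in Pros-depleted EEs and the 5 highest in Ttk-depleted ECs. A missing point is a missing peak. HnRNP-K is at 94.9 in progenitors with no other point, while scrt is at 15.1 in progenitors and 90.9 in Pros-depleted EEs.

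Progenitor-only regions were split nearly evenly between promoters and distal sites. A promoter here is any base within 500 bp of an annotated transcription start site (TSS). There were 561 at a promoter (45.4%, interval 42.7 to 48.2), while 48.1% of all merged regions were. This share lay between that of EE-only regions (34.3%) and that of regions of all 3 (74.7%), and was 69.9% for regions of progenitors and EEs and 31.6% for regions of progenitors and ECs. Summits fell in introns in 501 regions (40.6%), between genes in 425 (34.4%), in 5′ UTRs in 158 (12.8%), in coding exons in 72 (5.83%) and in 3′ UTRs in 53 (4.29%). For all merged regions the coding exon share was 18.3% and the 3′ UTR share 2.01%. The former includes EC-only regions, with 73.1% of summits in coding exons. Over all regions with a progenitor peak the 2 shares were 3.43% and 2.005%. The median distance to a protein-coding TSS was 1502 bp, and 191 summits (15.5%) lay over 10 kb away. A transposable element was overlapped by 30 regions (2.43%), against 1.76% of all merged regions.

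**Figure D4:**
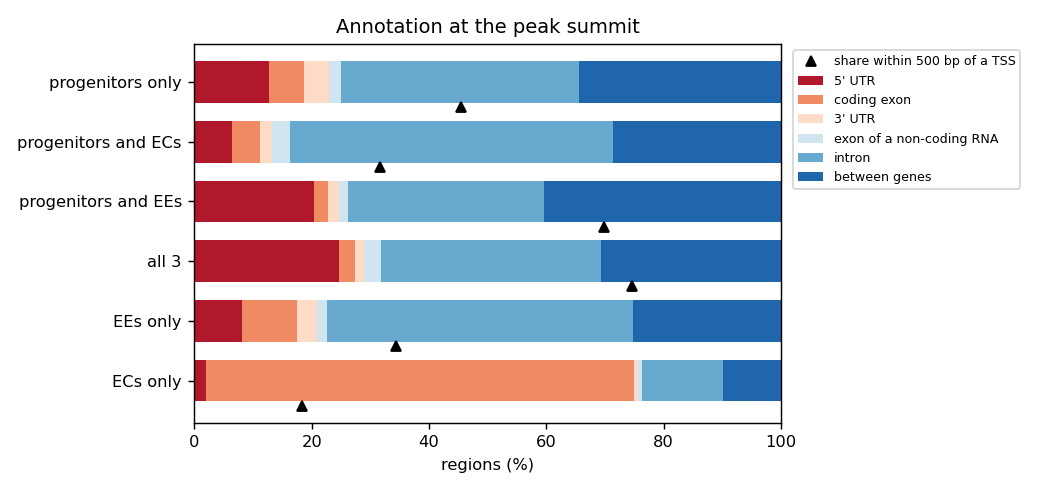
Share of regions by the annotation at the summit (stacked bars, in percent), for regions grouped by their peaks in the 3 normal populations, with triangles marking the share within 500 bp of a TSS. Of progenitor-only regions, 40.6% had their summit in an intron, 34.4% between genes and 5.83% in a coding exon.

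Distal members often lay beside genes whose promoter was open in every normal population. The nearest gene had a TSS at a region of all 3 for 323 of 674 distal progenitor-only regions (47.9%, interval 44.2 to 51.7). This was 45.6% for EE-only and 34.3% for EC-only distal regions, and 34.8% of all protein-coding genes had such a TSS. Among promoter regions the share was 12.5% (70 of 561), with 22.96% for EE-only and 13.4% for EC-only promoter regions. Such a region itself lies at a TSS and by the rule is not a region of all 3. Low shares at promoters thus follow in part from the choice and are not set against the distal ones. By arm, progenitor-only regions made up 13.0% to 14.1% of regions with a progenitor peak on 2L, 2R, 3L, 3R and X. On the fourth chromosome there were 18 of them, 17.1% (interval 11.1 to 25.5), and this interval includes the shares of the other arms.

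Clustering along the arms was limited. Another progenitor-only region lay within 10 kb of 318 regions (25.75%, interval 23.4 to 28.3). The share was 24.2% for the 1135 regions of progenitors and EEs and 38.4% for the 1503 regions of progenitors and ECs. It was 43.3% for EE-only and 47.3% for EC-only regions, which are more numerous, and the part of density in this was not tested. There were 143 runs of at least 2 regions, 25 of at least 3, and a largest run of 5. That run lay in CG33181 on X (chrX:8492952-8508549), with 1 of 5 regions also open in Pros-depleted EEs. A run of 4 at spir and La (chr2L:20323108-20347786) had 3 such regions, and a run of 4 from Stat92E to CG5191 (chr3R:20549023-20568178) had 2. A run of 4 at CG46339 and CG14252 had 1, and runs of 4 at CG32982 and from veli to fd96Ca had none. Among the 571 with stronger progenitor peaks, 13.5% had a neighbour within 10 kb.

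The 1235 regions had 1105 different nearest genes, 1005 of them nearest to 1 region, 77 to 2 and 23 to 3 or more. CG33181 and fru, which encodes a BTB zinc-finger factor known for sexual behaviour, were each nearest to 5. Ac13E, an adenylyl cyclase gene, CG32982 and dnc, the gene of the cAMP phosphodiesterase Dunce, were each nearest to 4. The next by symbol, with 3 each, were CG10283, CG13917, CG43149, CG46339 and Cadps, which encodes a factor for dense-core vesicle release. These genes are mostly long and held other open regions as well. The body of fru with 3 kb to each side held 18 merged regions, and that of dnc held 22. Of the genes named for their height in progenitors or their number, fru and Cyp4p2 were on the study's list of progenitor genes. Ten-m, CG32982, CG10283 and CG43149 were on its list of genes raised after Pros depletion, and the rest were on neither list. Among all merged regions, the nearest gene was on the progenitor list for 4.245% and on the Pros-depletion list for 20.03%. Whether the named genes exceed these shares was not tested.

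Of the 6 progenitor markers 2 held such a region (33.3%, interval 9.68 to 70.0), against 15.9% of all protein-coding genes. Within the gene body and 3 kb to each side, esg, Delta, Sox100B and fkh held none, Sox21a held 1 and klu, a zinc-finger gene of enteroblasts, held 2. The single region at esg and the 3 at fkh were open in all 3 normal populations. At Delta, the Notch ligand of stem cells, 1 region was shared with ECs and 1 with EEs. Both klu regions had low progenitor folds, 1.94 and 2.08, with −log10 q values of 1.91 and 2.59, and no peak in a depleted list.

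Among signalling lists, which were chosen with earlier results of these data known, the counts are read beside the 15.9% of all protein-coding genes with a progenitor-only region in the body or within 3 kb. Members are long genes, with list medians of 3847 to 13265 bp in the 6 pathways given next, against 2166 bp for all genes, and 22.55% of genes in the longest quartile held one against 10.3% in the shortest. In the Wnt list 8 of 19 genes had one. The antagonist nkd had 3, with progenitor folds of 3.42, 6.62 and 3.05. The receptor gene fz2 had 2 intronic regions with folds of 4.99 and 5.20, the former at percentile 26.2 in Pros-depleted EEs. The kinase gene sgg had 2, one of them with a Ttk peak at percentile 26.8. Apc, Wnt4, fz, fz3 and pan, the fly TCF gene, had 1 each.

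In the JNK list 5 of 11 genes had 1 region each, namely the ligand gene egr, its receptor gene grnd, the kinase genes msn and hep and the phosphatase gene puc, and none of these regions had a depleted peak. In the JAK-STAT list 4 of 12 had one: the receptor gene dome, the related et, the transcription factor gene Stat92E and the phosphatase gene Ptp61F. Ptp61F had 3, the highest with a fold of 4.27 at the indra promoter, and both this region and that of Stat92E had a Pros-depleted peak. In the EGFR list 5 of 21 had one: Egfr, the ERK gene rl, ru, the ETS factor gene pnt and the repressor gene cic. The 3 cic regions were all intronic, with folds of 6.10, 2.98 and 2.98, and none had a depleted peak. One of 2 pnt regions had a Pros peak, at percentile 18.9.

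In the BMP list 5 of 18 had one, namely the receptor genes tkv and wit, the nuclear factor gene shn and the glypican genes dally and dlp. The higher dally region had a fold of 6.55 and no depleted peak, while 1 of 2 dlp regions reached percentile 54.3 in Pros-depleted EEs. In the Notch list 3 of 23 had one: klu, the protease gene kuz and mam, the coactivator, with 3 intronic regions of folds 1.79 to 2.63. In the cell cycle list 5 of 30 had one: E2f1, borr, fzr, geminin and PCNA. The 2 promoter regions counted at PCNA lay at the starts of PCNA (fold 3.11) and of RpS18 (fold 5.76), the latter with a Pros peak at percentile 23.9. In the adhesion list 7 of 26 had one, and the integrin subunit genes mew and mys had 2 each. In the Hippo list 2 of 16 had one, with 2 regions at app, and in the insulin and Tor list 2 of 17.

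Markers of other cell types were counted in the same way. None of 10 EC markers and none of 9 haemocyte markers held a progenitor-only region, which allows shares of up to 27.75% and 29.9% (upper Wilson bounds). Of 18 EE markers 3 did: NPF, a neuropeptide gene, with 3, Orcokinin with 1 and pros with 2. Of those counted at NPF only 1 was nearest to NPF itself, and it had no depleted peak. The others were nearest to CG10345 and CG10340, and the one at the CG10340 promoter had a Pros peak at percentile 16.2. Of those counted at pros, 1 lay at the promoter of Irbp, without a depleted peak. The intronic pros region had peaks in both depleted lists, at percentiles 10.8 and 29.1. Of 13 visceral muscle markers Mef2 and how held 2 each, of 7 neuron markers para held 1, of 6 tracheal markers bnl held 1, and of 6 germline markers bam held 1 and piwi 2. Of the muscle regions, the folds were 1.94 to 3.57 and none had a depleted peak. Of 16 neuroblast genes, 3 had one.

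The study's RNA lists were set beside the regions. Of 185 progenitor genes that matched the annotation by symbol, of 208 names in a list that the study describes as longer, 55 (29.7%, interval 23.6 to 36.7) held a progenitor-only region. In the longest quartile of genes, over 4998 bp, the share was 39.3% (46 of 117, interval 30.9 to 48.4) against 22.5% of all genes of that length. In the third quartile it was 18.9% against 16.1%, with an interval of 9.48 to 34.2. In the 2 shorter quartiles it was lower than for all genes, 1 of 13 (7.69% against 14.8%) and 1 of 18 (5.56% against 10.3%), with intervals that include the shares of all genes. Of 1662 genes raised after Pros depletion, 379 (22.8%) held one, and in the longest quartile 30.3% (interval 26.9 to 34.0). Such genes were also nearest gene to regions of other kinds. A gene of the progenitor list was nearest to 4.78% of progenitor-only regions, to 4.25% of all merged regions and to 7.78% of regions of progenitors and ECs. A gene raised after Pros depletion was nearest to 20.4% of progenitor-only and 20.03% of all merged regions. Among progenitor-only regions, it was nearest to 59 of 227 with a peak in Pros-depleted EEs (26.0%, interval 20.7 to 32.1) and to 193 of 1008 without (19.15%, interval 16.8 to 21.7). These 2 intervals met. For regions of progenitors and ECs the same shares were 38.5% and 24.3%.

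Motif letters were counted on both strands in the 300 bp at the progenitor summit, and for regions without a progenitor peak at the summit of the EE peak, the EC peak or, failing both, a depleted peak. The 17 sets searched began with signalling factors, namely TGANTCA for the AP-1 factors of JNK signalling, TTCNNNGAA for STAT, TGGGAA for the Notch effector Su(H) and GGAATG for the Hippo effector Scalloped. Sets for lineage factors were ACAGGTG for Esg and other Snail factors, AGATAAG for GATA factors, TAAACA for Forkhead factors, TTTATGG for the gut homeobox factor Caudal and CAGCTG for the proneural factors, with AGGACC for Ttk itself. Sox factors had ACAATGG and, as a second form, ACAATAG. The general factors were GAGAGAG for the GAGA factor, CAGGTAG for the pioneer factor Zelda, AACNGGTT for the epithelial factor Grainyhead, TATCGATA for the DRE, CACGTG for the growth regulator Myc and CAAAGTCCA for nuclear receptors. At least 1 was found in all but 230 windows (18.6%). GC content averaged 41.5% in progenitor-only windows, 44.4% at regions of all 3, 45.6% at EE-only and 55.2% at EC-only regions, so letter counts must be read beside base composition.

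Forkhead letters were in 36.7% of progenitor-only windows (interval 34.0 to 39.4), 29.2% of windows of all 3 and 25.7% of all merged regions. Regions of progenitors and EEs, with a similar mean GC of 41.3%, had 35.7% (interval 32.95 to 38.5), and regions of progenitors and ECs 31.7%. Within the quartile of lowest GC the shares were 47.8% (interval 43.8 to 51.9), 39.5% and 41.8%. In the next quartile they were 32.6%, 32.2% and 31.2%, and in the third 23.9%, 22.9% and 21.2%. A higher share than in all merged regions was thus outside the interval only where GC was lowest. GAGA letters, bound by the GAGA factor, were in 5.83% of progenitor-only windows (interval 4.66 to 7.28), 15.9% of windows of all 3 and 10.2% of all merged regions. From the lowest to the highest GC quartile the progenitor-only shares were 3.8%, 7.71%, 6.42% and 10.2%, those of all 3 were 5.24%, 14.1%, 21.9% and 31.3%, and those of all merged regions 4.87%, 10.35%, 15.04% and 10.3%. Intervals of progenitor-only regions and regions of all 3 met in the lowest quartile, which held 579 members, and were apart in the other 3. The share of all merged regions lay outside the progenitor-only interval in the third quartile alone.

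The DRE was in 56 of 561 promoter windows (9.98%, interval 7.77 to 12.7) and 5 of 674 distal windows (0.742%) of progenitor-only regions, against 6.92% and 0.710% of all merged regions and 7.80% of promoter regions of all 3. Promoter regions of progenitors and EEs had it in 12.5%. STAT letters were in 8.83% (interval 7.37 to 10.5) against 6.96% of all merged regions, Caudal letters in 8.10% (interval 6.70 to 9.75) against 6.495%, and Ttk letters in 2.996% against 5.05%, with 2.77% at regions of all 3. Within each of the 4 GC quartiles the STAT and Caudal shares of all merged regions lay inside the progenitor-only interval. For Ttk letters the shares in the lowest GC quartile were 2.94% and 2.79%. AP-1 letters were in 7.37% against 8.35%, with an interval of 6.04 to 8.96. At distal windows they were in 7.42% (interval 5.67 to 9.65), and the 9.09% of all distal merged regions lay inside this interval. Distal shares were 8.77% for regions of progenitors and EEs, 11.4% for regions of progenitors and ECs and 15.03% for regions of all 3. The letters bound by the Snail family, to which Esg belongs, were in 15 windows (1.215%, interval 0.737 to 1.99) against 2.93% of all merged regions. Regions of progenitors and ECs were similar, with 1.33%. The share was 2.64% for regions of progenitors and EEs, 2.31% for regions of all 3, 3.94% for EE-only and 4.59% for EC-only regions. Proneural letters were in 16.8% (interval 14.8 to 18.95) against 19.3% of all merged regions. They were in 20.5% of regions of progenitors and EEs, 15.4% of regions of progenitors and ECs and 16.8% of EE-only regions. The Snail-family and proneural shares are given here without GC quartiles, so base composition is not matched in them. For the Su(H), Sox, Scalloped, GATA, Zelda, Grainyhead, Myc and nuclear receptor letters, the share of all merged regions lay inside the progenitor-only interval.

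**Figure D5:**
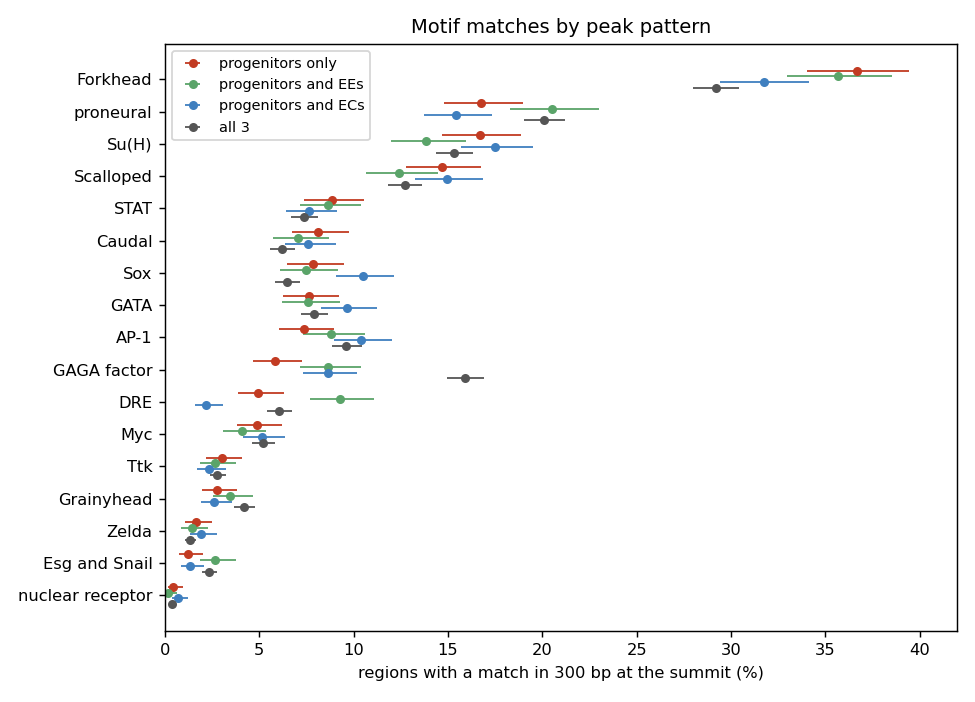
Share of regions with a match in the 300 bp at the summit (percent) for 17 sets of motif letters, in progenitor-only regions, regions shared with EEs, regions shared with ECs and regions of all 3 normal populations. Points are shares and bars 95% Wilson intervals. Forkhead letters are in 36.7% of progenitor-only, 35.7% of EE-sharing and 29.2% of all-3 windows, and GAGA letters in 5.83%, 8.63% and 15.9%.

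The fate in Pros-depleted EEs differed with some letters. Of 94 progenitor-only regions with GATA letters 28 had a peak there (29.8%, interval 21.5 to 39.7), against 17.4% of those without (interval 15.35 to 19.75). Of 100 with Caudal letters 28 did (28.0%, interval 20.1 to 37.5), against 17.5% of those without (interval 15.4 to 19.9). Zelda letters, in only 20 regions, had 25% (5 regions) and 18.3%, and proneural letters 23.2% (interval 18.0 to 29.4) and 17.4%, and in both cases the intervals met. For Forkhead letters the shares were 19.2% and 17.9%, and for the Ttk letters 13.5% of 37 and 18.5%. GATA and Caudal were thus 2 of 17 sets read side by side, and none of these differences was tested. The spir region shown above holds both.

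The heptamer TATGTAA was picked after its values were seen, from a ranking of heptamers in distal windows that runs of A and T led, and is given as description. It was in 64 of 674 distal progenitor-only windows (9.496%, interval 7.51 to 11.9), against 4.24% of all distal merged regions and 5.39% of distal regions of all 3. In distal windows of the lowest GC quartile the shares were 13.55%, 9.32% and 11.5%, and in the next 9.78% (interval 6.55 to 14.4), 5.64% and 6.49%. At promoters it was in 7.13% of progenitor-only windows (interval 5.28 to 9.56) and 5.39% of all. Regions with it had a peak in Pros-depleted EEs in 22 of 104 cases (21.2%, interval 14.4 to 30.0). The Tie region shown above holds it 142 bp to the left of the summit.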

How the data were processed

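ATAC-seq peak lists of 5 sorted midgut cell populations, 1 library each, were used. The authors trimmed reads with Cutadapt, mapped them to BDGP6 with bowtie2 (the submitters' processing notes give 2.2.4, and the study's methods another version), and removed duplicates (Picard), multimapped reads (samtools) and blacklisted regions (bedtools). They called peaks in each sample with MACS3, with settings not given in the sources used here. For every peak the authors deposited MACS3's fold enrichment, a ratio to the background the caller set, with its −log10 q and −log10 p. The deposited score column is a whole number scaled from the −log10 q and was not used. Reads and depth were not analysed here, so the depth behind each peak is unknown, and no interval here covers differences between libraries. All deposited peaks lay within the arm lengths of the Release 6 genome.

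Intervals were merged with Python 3.11.15, pandas 2.3.3 and NumPy 2.4.6, and shares and Wilson intervals were computed with SciPy 1.17.1. Genes and TSSs came from Ensembl release 115, nearest genes from protein-coding TSSs, and sequences from RefSeq's copy of Release 6. The code was tested on simulated intervals and motifs. The members, the gene lists and the motifs were chosen with earlier results of these data known. Named genes were the progenitor markers, the nearest genes of the 10 highest members, the 10 genes nearest to most members, list genes with at least 2 members, and the nearest genes of the 5 members highest in each depleted list. Genes of the study's lists among these were pointed out. List genes with 1 member and those of the printed sequences were named in addition. Stricter thresholds, equal list lengths, other merging, other promoter and cluster distances and other motif windows were tried.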

Additional observations from a re-analysis of the deposited data

Results flagged for a closer look

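Outside the chromosome arms, on sequences that no comparison above used, 2 merged regions of 127 followed the same rule, open in progenitors but in neither differentiated type. They were picked out because they lie in data outside the main measurement. Neither had a peak in a depleted list.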

How the results depend on the processing

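No paired analysis was possible because each population had 1 library, and for the same reason leaving out a library was not run. Merging intervals up to 200 bp apart and windows of 250 bp around summits kept the number of regions within 1.5 times of 1235 and the 4 shares within their intervals.

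With a −log10 q minimum of 5 in all lists, the share with a Pros peak was 16.1%, with a Ttk peak 0.726%, at a promoter 50.9% and with a neighbour within 10 kb 31.4%. At 10 these were 11.7%, 0%, 55.4% and 36.4%, and over all regions the Pros and Ttk shares were then 56.6% and 1.18%. With lists of equal length, 256 regions met the rule, with shares of 25.8%, 19.5%, 57.8% and 5.86%, beside 55.4% (Pros) and 49.0% (Ttk) over all regions, and the named genes held 10 regions in place of 100. Peak by peak with 50% coverage, the Ttk share was 0.493% and the neighbour share 32.5%. With summits, the neighbour share was 30.6%. An alternative chosen after seeing the data, a −log10 q minimum of 10 for progenitor peaks alone, left 571 regions, 54 of them at named genes, with a Pros share of 23.1% and a neighbour share of 13.5%. The causes were not tested, beyond the number of peaks each setting keeps.

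The promoter share was 41.4% within 200 bp, 50.8% within 1 kb and 41.9% with protein-coding starts only. The neighbour share was 14.7% within 5 kb and 39.3% within 20 kb. By fold quartile, the Pros share was 15.2%, 25.3%, 20.5% and 35.7%, at promoters 21.9% and at distal regions 15.4%. Windows of 200 bp held a motif of the 17 sets in 67.8% of regions and windows of 500 bp in 92.5%, against 81.4% at 300 bp, and the heptamer alone was in 8.42%. For 53 named genes, 310 of 424 counts under the alternatives stayed within 1.5 times, 86 fell further and 28 rose further. Peak lists of 1 library each limit all of these values.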
